A study of Homo sapiens with 6 samples.

Results

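The cluster of miR-371a, miR-372 and miR-373 is a group of 3 miRNA hairpins on chromosome 19, and its 6 mature products were taken by name from the table of mature miRNAs counted in Caco-2 cells. They are hsa-miR-371a-5p, hsa-miR-371a-3p, hsa-miR-372-5p, hsa-miR-372-3p, hsa-miR-373-5p and hsa-miR-373-3p, which makes 6 of the 2588 miRNAs in the table. The cluster was chosen by a measured value, the level of miR-372-3p in the input libraries, so that level and every value resting on miR-372-3p are given as a description with no test. Caco-2 is an established line from a human colorectal adenocarcinoma, here untreated and with no genotype change named. Total RNA was treated to remove mRNA caps, and its small RNA was sequenced as 3 input libraries. A further 3 m7G-RIP libraries followed immunoprecipitation of the heat-denatured RNA with an antibody against 7-methylguanosine (m7G). The comparison of these groups asks which miRNAs the antibody retains. The samples include no library from a control antibody. The labels number the libraries from 1 to 3 within each group but do not say whether they came from separate cultures, so p-values measure the spread between these libraries, which may be technical.

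A primary miRNA transcript is cut to a hairpin and then to a short duplex, whose 5p and 3p arms can each be loaded into the silencing complex. The hairpins of miR-371a, miR-372 and miR-373 are best known from human embryonic stem cells and germ cell tumours, where their 3p arms act beside the miR-302 family, with which those of miR-372 and miR-373 share a seed. The seed, the stretch near the 5′ end that pairs with target mRNAs, holds the letters AAGUGC in the 3p arms of miR-372 and miR-373 and also in the growth-promoting miR-17 family. m7G is the base of the mRNA cap and of internal positions in tRNA and rRNA, and the antibody was used to look for it inside miRNAs.

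The mature sequences are shown because the arms are told apart by them. They come from the RefSeq miRNA table of build GRCh38.p14, read 5′ to 3′, with the seed (bases 2 to 8) in capitals.
hsa-miR-371a-5p: aCUCAAACugugggggcacu
hsa-miR-372-5p: cCUCAAAUguggagcacuauucu
hsa-miR-373-5p: aCUCAAAAugggggcgcuuucc
hsa-miR-371a-3p: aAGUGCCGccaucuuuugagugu
hsa-miR-372-3p: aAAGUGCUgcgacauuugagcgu
hsa-miR-373-3p: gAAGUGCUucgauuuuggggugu

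miR-372-3p and miR-373-3p have the same seed, AAGUGCU, and match at 16 of 23 positions counted from base 1. miR-371a-3p holds AAGUGC 1 base closer to its 5′ end, and its seed reads AGUGCCG. The seeds of the 5p arms all begin with CUCAAA and differ in the last base. The 5p arms of miR-371a and miR-373 hold a run of 5 G, that of miR-372 has a longest run of 2 G, and miR-373-3p has a run of 4 G. No other mature sequence in the table matched a tested member at more than 18 positions, in an ungapped comparison with shifts of up to 3 bases. The closest was miR-302d-3p, with 18 positions shared with miR-373-3p and 17 with miR-372-3p.

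The hairpins show how each pair of arms lies in one molecule, with the mature arms in capitals.
MIR371A: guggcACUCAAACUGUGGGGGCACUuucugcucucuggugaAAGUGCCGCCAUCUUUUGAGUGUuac
MIR372: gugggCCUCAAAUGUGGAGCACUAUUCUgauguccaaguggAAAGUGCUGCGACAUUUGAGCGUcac
MIR373: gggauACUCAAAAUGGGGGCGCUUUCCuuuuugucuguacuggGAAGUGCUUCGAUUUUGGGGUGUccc

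On the plus strand of GRCh38, MIR371A (ENSG00000199031.1) lies at chr19:53787675-53787741, MIR372 (ENSG00000199095.1) at chr19:53787890-53787956 and MIR373 (ENSG00000199143.1) at chr19:53788705-53788773. The hairpins span 1099 bases, with 148 bases between MIR371A and MIR372 and 748 bases between MIR372 and MIR373. In GENCODE release 44 they lie within the lncRNA gene ENSG00000269564.2 on the same strand, MIR373 inside an exon and MIR371A and MIR372 in introns. MIR371A and MIR372 also lie opposite an exon of the lncRNA ENSG00000269877.3. The larger miRNA cluster C19MC ends 25244 bases before MIR371A, and the nearest protein-coding gene after MIR373 is NLRP12, 4967 bases away. MIR371B (ENSG00000284568.1) at chr19:53787677-53787742 is annotated on the minus strand, opposite MIR371A.

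Library totals ran from 16466178 to 19628046 counts in the input and from 1654102 to 3105129 counts in m7G-RIP, and no library repeated another. The labelled cell type was checked in the input: the 5 epithelial markers of the miR-200 family stood between 260.2 and 20823 scaled CPM, the intestinal miR-192-5p, miR-194-5p and miR-215-5p between 3507 and 54882 CPM, and of 10 markers of blood, muscle, mesenchyme, liver and neurons the highest was miR-1-3p at 644 CPM. miR-1-3p, a muscle marker, thus stood above the lowest epithelial marker, miR-141-3p. The muscle marker miR-133a-3p stood at 60.7 CPM, and the mesenchyme markers miR-143-3p and miR-145-5p at 174 and 3.99 CPM. The neuron marker miR-124-3p stood at 0.173 CPM. The blood markers miR-142-3p, miR-451a and miR-142-5p stood at mean levels of 5.99, 4.83 and 2.62 scaled CPM in the input. The blood marker miR-223-3p had no count there. The liver marker miR-122-5p had none either, but it is overlapped on the opposite strand by another mature miRNA, and its 0 cannot be read as a level, as described for miR-371a below. Summed over each list, the 10 markers of other cell types held 862 to 940.4 CPM in the input and 633 to 913 CPM in m7G-RIP, the epithelial markers 42880.2 to 43072 CPM and 32545 to 41015 CPM, and the intestinal markers 70900 to 78780.1 CPM and 5404 to 7386 CPM. The part of cell makeup in the values below was not tested. A scaled CPM is a count per 1000000 of a library size adjusted with TMM factors, which set the middle of the miRNAs level between libraries, so these values do not add up to the same total in every library.

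The 6 members together held a large share of all miRNA counts, and the share was lower after immunoprecipitation. In input replicates 1, 2 and 3 they took 31.1%, 31.5% and 29.8% of the counts. In m7G-RIP replicates 1, 2 and 3 they took 8.68%, 7.75% and 8.43%. The groups did not overlap, and the mean went from 30.8% ± 0.906 (SD, n = 3) to 8.29% ± 0.483 (SD, n = 3), a difference of -22.5 percentage points. Nearly all of it was miR-372-3p, which made up 97.3% ± 0.282 of the members' counts in the input and 93.6% ± 0.975 in m7G-RIP. These are bulk libraries, in which more cells expressing a miRNA and more of it per cell cannot be told apart.

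miR-372-3p, a seed-carrying arm of the pluripotency program, ranked number 1 of all miRNAs by mean level in the input and number 4 in m7G-RIP. It had 5041473, 6025693 and 4755189 counts in the input libraries, or 429797, 472050 and 414933 scaled CPM. It had 253777, 224493 and 129447 counts in the m7G-RIP libraries, or 61606, 50549 and 47692 scaled CPM. The lowest input library stood far above the highest m7G-RIP library. The fitted log2 ratio of m7G-RIP to input was -3.04 ± 0.16 (SE), a fall of the mean from 438926 ± 29633 to 53283 ± 7349 CPM (SD, n = 3). With total counts the log2 ratio was -1.95, and with DESeq2's size factors -3.39. These values are a description only, since the input level chose the cluster. It was number 133 from the lowest of 800 tested miRNAs.

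miR-372-5p, the opposite arm of the same hairpin, was far less abundant and fell further. It had 7168, 7997 and 7440 counts in the input and 102, 82 and 54 counts in m7G-RIP. On the scaled CPM these were 611, 626 and 649 in the input against 24.8, 18.5 and 19.9 in m7G-RIP. The groups lay wide apart and the spread within each was small. The log2 enrichment was -4.90 ± 0.18 (SE), with an adjusted p of 9.37e-11 by edgeR's quasi-likelihood test over the 800 tested miRNAs. This put the mean input level 29.9-fold above the m7G-RIP level on this scale. The log2 enrichment was -3.81 with total counts, -4.22 with total counts without the 6 members and -5.25 with DESeq2's size factors. The rank by mean CPM went from 84 to 263.

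miR-373-3p carries the same seed as miR-372-3p and also fell, by less. It had 133993, 136546 and 132580 counts in the input and 12636, 13756 and 8572 counts in m7G-RIP. Its scaled CPM was 11423, 10697 and 11569 in the input and 3067, 3097 and 3158 in m7G-RIP, and the groups did not overlap. The log2 enrichment was -1.85 ± 0.13 (SE), with an adjusted p of 2.58e-08 by edgeR's quasi-likelihood test. Its size depended on the scaling, and it was -0.75 with total counts and -2.20 with DESeq2's size factors. Total counts include miR-372-3p, so the -0.75 is a description. With total counts without the 6 members it was -1.16 (adjusted p = 1.01e-05, edgeR). It was the 16th most abundant miRNA in the input and the 30th in m7G-RIP.

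miR-373-5p was the single member above its input level. It had 4193, 3552 and 4046 counts in the input and 1545, 2257 and 1443 counts in m7G-RIP, where the libraries were smaller. Its scaled CPM was 357, 278 and 353 in the input and 375, 508 and 532 in m7G-RIP, so the groups did not overlap, although m7G-RIP replicate 1 stood close to the highest input library. The log2 enrichment was 0.52 ± 0.17 (SE), with an adjusted p of 0.0139 by edgeR's quasi-likelihood test. The direction was the same under every scaling tried, while the call was not. The log2 enrichment ranged from 0.18 with DESeq2's size factors (adjusted p = 0.359, edgeR) to 1.63 with total counts. Total counts include miR-372-3p, whose lower share in m7G-RIP raises the other values, so the 1.63 is a description. With total counts without the 6 members it was 1.22 (adjusted p = 0.000329, edgeR). The call was also lost without input replicate 2 (0.42, adjusted p = 0.0720, edgeR), without m7G-RIP replicate 2 (0.30, adjusted p = 0.183, edgeR) and without m7G-RIP replicate 3 (0.34, adjusted p = 0.0833, edgeR). As a share of all counts, which include miR-372-3p, miR-373-5p went from a mean of 0.0226% in the input to 0.0700% in m7G-RIP. Its rank went from 113 to 85.

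**Figure D1:**
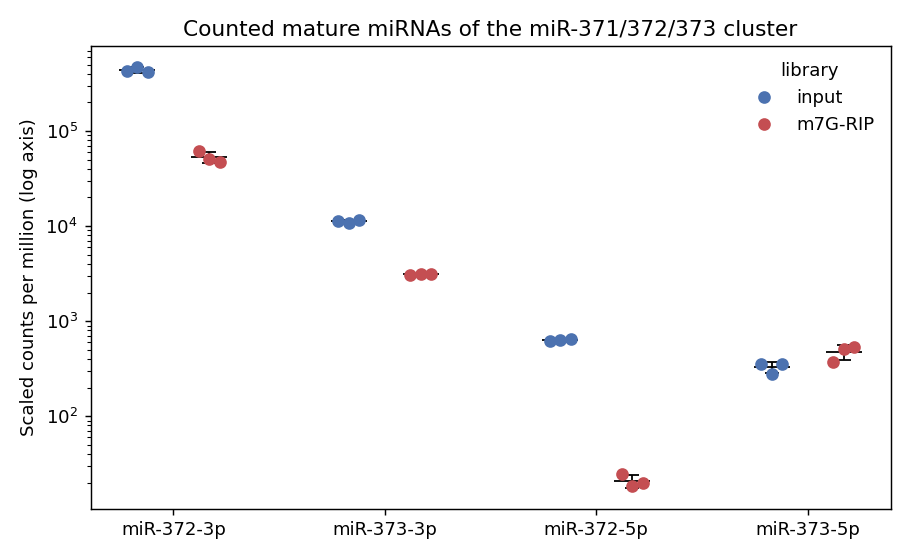
Scaled CPM (log axis) of the 4 counted members in each of 3 input and 3 m7G-RIP libraries, with 1 point per library, and a bar and whiskers for the mean and SD. miR-372-3p, miR-373-3p and miR-372-5p lie lower in every m7G-RIP library than in any input library, while miR-373-5p lies between 278 and 357 in the input and between 375 and 532 in m7G-RIP.

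In all, 4 of the 6 members passed the filter on low counts, of which 3 were called lower in m7G-RIP, where 38.1% of all 800 tested miRNAs were, and 1 was called higher, where 40.1% of all tested were. miR-372-3p is among the 3, so that of the members whose level did not enter the choice, 2 were lower. The median log2 enrichment of the 4 was -2.45, beside 0.16 over all tested miRNAs. It rests on miR-372-3p and is a description. All tested miRNAs include rare ones, which can pass the filter through their m7G-RIP counts alone. Read in their own order, miR-372-5p was lowest, then miR-372-3p, miR-373-3p and miR-373-5p, and the ratio of each neighbouring pair within a library did not overlap between the groups. Levels in the input followed another order, in which miR-372-3p and miR-373-3p, the arms with the shared seed, stood above both 5p arms.

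Ratios between members within a library need no scaling between libraries. All 6 ratios between the 4 counted members separated the groups without overlap, as did 74.9% of the 319600 pairs of tested miRNAs. miR-372-5p stood 0.94 ± 0.21 (SD, n = 3) above miR-373-5p on the log2 scale of counts in the input, and 4.47 ± 0.48 below it in m7G-RIP, so their order was turned around. The log2 ratio of miR-372-5p to miR-373-3p went from -4.16 ± 0.07 to -7.21 ± 0.23 (SD, n = 3). For both of these pairs, and for the arms of miR-373, an exact permutation test of 3 against 3 libraries gave p = 0.1, two-sided, the smallest it can give, and 0.1 again after adjustment over the 6 pairs. The log2 ratio of miR-372-3p to miR-373-3p, the pair with a common seed, went from 5.29 ± 0.16 to 4.09 ± 0.21 (SD, n = 3), given here as a description.

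The ratio of the 3p arm to the 5p arm was lower in m7G-RIP for miR-373 and higher for miR-372. For miR-373 there were 32.0, 38.4 and 32.8 counts of the 3p arm for each count of the 5p arm in the input, and 8.18, 6.09 and 5.94 in m7G-RIP. Every m7G-RIP library thus held a smaller excess of the 3p arm than every input library. The difference of the log2 ratio was -2.36 ± 0.21 (SE), with an adjusted p of 0.000367 by limma over the 194 hairpins with both arms counted. A lower ratio was called in 46.4% of those hairpins.

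For miR-372 the 3p arm was in still greater excess. The counts of the 3p arm for each count of the 5p arm were 703, 753 and 639 in the input, and 2488, 2738 and 2397 in m7G-RIP. The ratio was higher in every m7G-RIP library, with a difference of 1.85 ± 0.18 (SE) on the log2 scale, given with no test because it rests on miR-372-3p. A higher ratio was called in 20.6% of the 194 hairpins, whose median difference was -0.84.

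**Figure D2:**
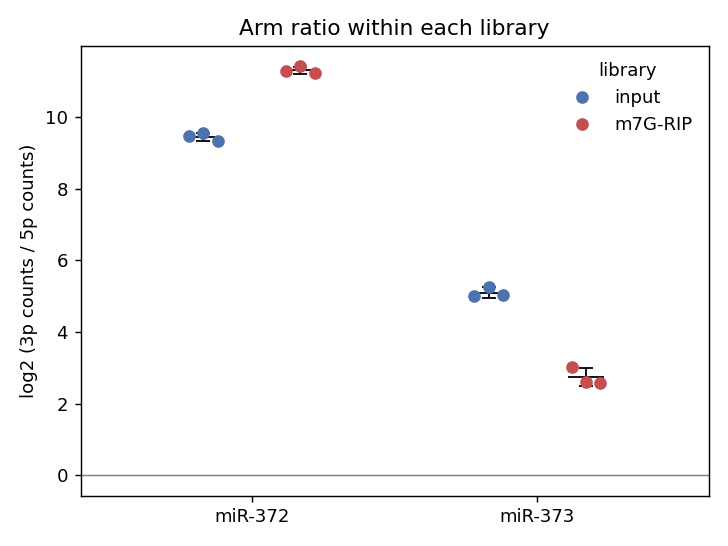
log2 ratio of 3p to 5p counts within each of 3 input and 3 m7G-RIP libraries for the hairpins of miR-372 and miR-373, with 1 point per library, and a bar and whiskers for the mean and SD. The ratio of miR-372 is higher in m7G-RIP by 1.85 and that of miR-373 lower by 2.36 (difference -2.36).

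miR-371a-5p and miR-371a-3p were listed at 0 in all 6 libraries, as was miR-371b-5p of the opposite strand. miR-371b-3p had 13, 5 and 10 counts in the input and 4, 5 and 1 in m7G-RIP, and did not pass the filter. A count of 0 allows up to 3 counts, or 0.235 to 1.11 scaled CPM depending on the library. Such a limit cannot be read as a level of miR-371a here, because its arms share their genomic position with arms of miR-371b: miR-371a-5p is overlapped over all of its 20 bases by miR-371b-3p, and miR-371a-3p over 21 of 23 bases by miR-371b-5p. Of 78 mature miRNAs overlapped at every locus by a mature miRNA of the opposite strand, 72 (92.3%) had no count in any library, miR-423-5p, miR-423-3p and miR-103a-3p among them. Of 2198 that were not overlapped, 29.5% had no count. The strand setting used for counting is not given in the sources used here, and its part in the zeros was not tested.

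The cluster of the miR-302 hairpins and miR-367, on another chromosome, is the other embryonic miRNA cluster that carries the seed letters. Of its 10 mature arms 7 were tested, of which 5 were called lower, 0 were called higher and 2 were not called, by edgeR's quasi-likelihood test, beside 38.1% lower and 40.1% higher among all 800 tested miRNAs. Its members were rarer than miR-372-3p, with at most 12757 counts in any library. miR-302b-3p had 11294, 12757 and 10609 counts in the input and 614, 501 and 228 in m7G-RIP, a log2 enrichment of -3.06 ± 0.20 (SE, adjusted p = 1.23e-08, edgeR), close in size to the -3.04 of miR-372-3p. The values of miR-302a-3p and miR-302d-3p were -3.12 and -3.13, and that of miR-302c-3p was -2.26 ± 0.21.

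The 5p arm of miR-302a stood apart from its 3p arm as the arms of miR-373 did. miR-302a-5p had 5928, 7534 and 6350 counts in the input and 2304, 2627 and 861 in m7G-RIP, with a log2 enrichment of -0.17 ± 0.20 (SE, adjusted p = 0.458, edgeR) and overlapping groups. The log2 ratio of its 3p to its 5p arm differed by -2.96 ± 0.23 (SE, adjusted p = 0.000220, limma) between m7G-RIP and input. For miR-302c the difference of the arms was -0.38 ± 0.36 (SE, adjusted p = 0.377, limma), with overlapping groups. For miR-302d it was -2.06 ± 0.56 (SE, adjusted p = 0.0221, limma), with groups that did not overlap, and its 5p arm had no more than 26 counts in the input and 10, 2 and 1 counts in m7G-RIP.

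Beyond the members, 23 miRNAs in the table hold AAGUGC within their first 8 bases, and 11 of them were tested. Of these 10 were called lower and 0 higher by edgeR's quasi-likelihood test, with a median log2 enrichment of -3.12, where 38.1% of all tested miRNAs were called lower and 40.1% higher, with a median of 0.16. The list shares 4 miRNAs with the tested arms of that cluster and 1 with C19MC. The representatives that are printed here carry the motif at the same place as miR-372-3p or 1 base to the right.
hsa-miR-302b-3p: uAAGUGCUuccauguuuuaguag
hsa-miR-17-5p: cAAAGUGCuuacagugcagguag
hsa-miR-106b-5p: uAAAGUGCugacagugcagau

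miR-17-5p and miR-20a-5p, products of the growth-promoting miR-17 cluster, had log2 enrichments of -3.13 ± 0.14 and -3.36 ± 0.15 (SE). miR-93-5p and miR-106b-5p come from a related cluster and stood at -2.43 ± 0.13 and -5.02 ± 0.19, the highest and the lowest of the miR-17 family here. Some members of this family, such as miR-17-5p and miR-106a-5p, differ by few bases, and their counts may be mixed. miR-512-3p, with few counts, was at -1.05 ± 0.70 and was not called (adjusted p = 0.180, edgeR). miR-373-3p, at -1.85, thus lay above 10 of these 11 relatives. The difference between it and them was not tested.

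**Figure D3:**
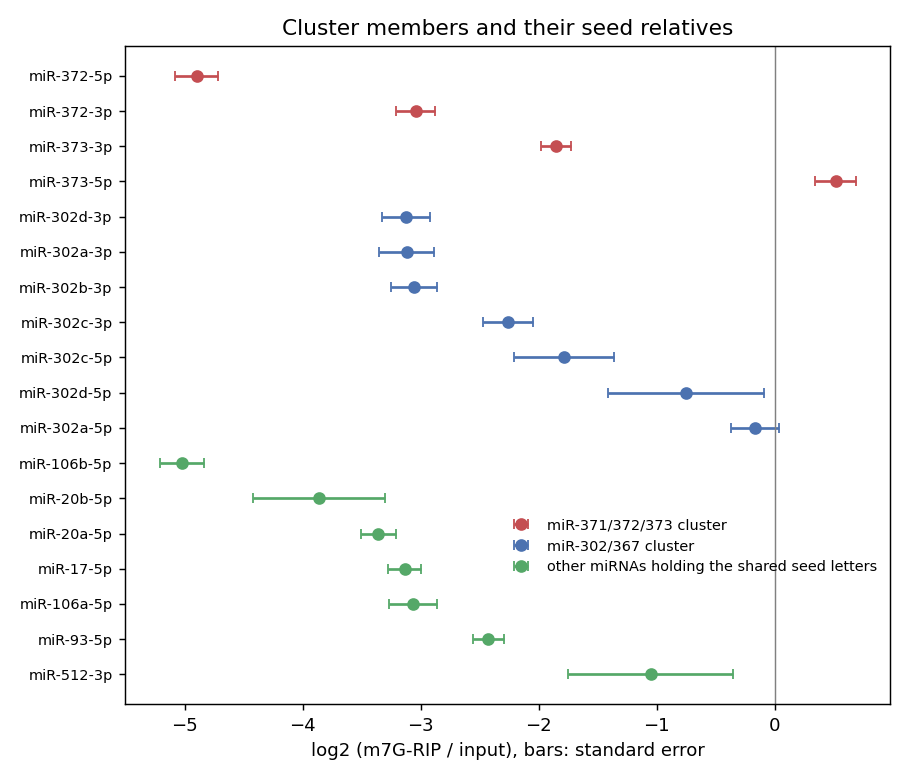
log2 ratio of m7G-RIP to input (horizontal axis, whiskers: standard error) for the tested members of the cluster, of the miR-302 cluster and of the other miRNAs with the seed letters AAGUGC. miR-373-5p, at 0.52, is the only point above 0, and miR-372-3p, at -3.04, lies among the 3p arms of miR-302.

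C19MC, the primate miRNA cluster that lies before MIR371A on the same chromosome, was hardly counted. Of 61 listed mature miRNAs 5 were tested, and no C19MC miRNA had more than 53 counts in a library. miR-516a-5p was lower (-2.45 ± 0.87, SE, adjusted p = 0.0196, edgeR), with 22, 18 and 30 counts in the input and 0, 4 and 0 in m7G-RIP. Those m7G-RIP counts lie about the limit of 3 counts. miR-1323 was higher (2.07 ± 0.53, SE), with 9, 17 and 19 counts in the input and 24, 33 and 6 in m7G-RIP. Its mean level was 1.25 scaled CPM in the input and 5.16 in m7G-RIP. It could thus pass the filter through its m7G-RIP libraries alone, which favours a higher value, so this is a description. miR-512-3p, miR-1283 and miR-516b-5p were not called. Thus 1 of the 5 was called lower and 1 higher, beside 38.1% and 40.1% of all 800 tested miRNAs. The close neighbour of the cluster on the chromosome thus held few counts in libraries in which miR-372-3p alone held at least 4755189 counts in the input.

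The members also differ in their guanosines, the base that carries m7G. miR-373-3p has 9 G in 23 bases (39.1%), miR-372-3p 7 in 23 (30.4%), miR-373-5p 6 in 22 (27.3%) and miR-372-5p 4 in 23 (17.4%). The motif GGGG, read on the strand of the mature miRNA, stood in 15.3% of 714 tested miRNAs with a sequence in the table, and GGGGG, which contains it, in 3.08% of them. Both motifs stand in miR-373-5p, GGGG alone in miR-373-3p, and neither in the arms of miR-372. These counts are a description, and the grouping by the longest run was chosen after the values were seen.

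Across the tested miRNAs the median log2 enrichment was below 0 for runs of up to 2 G and rose with the length of the run from 3 G on. The median was -0.65 for 185 miRNAs with a run of 0 or 1, -0.97 for 268 with a run of 2, 0.92 for 152 with a run of 3, 2.75 for 87 with a run of 4 and 3.70 for 22 with a run of 5 or more. Spearman's rho across miRNAs was 0.41 for the longest run and 0.50 for the share of G, over points that share the same libraries. The members lay low in their groups. These groups also hold rare miRNAs, which can pass the filter through their m7G-RIP counts alone and raise the medians. The places of the members are therefore a description. miR-373-5p was the second lowest of the 22 with the longest runs, above miR-302c-5p alone, and miR-373-3p was number 4 from the lowest of 87. miR-372-3p was number 38 of 185 and miR-372-5p number 14 of 268.

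**Figure D4:**
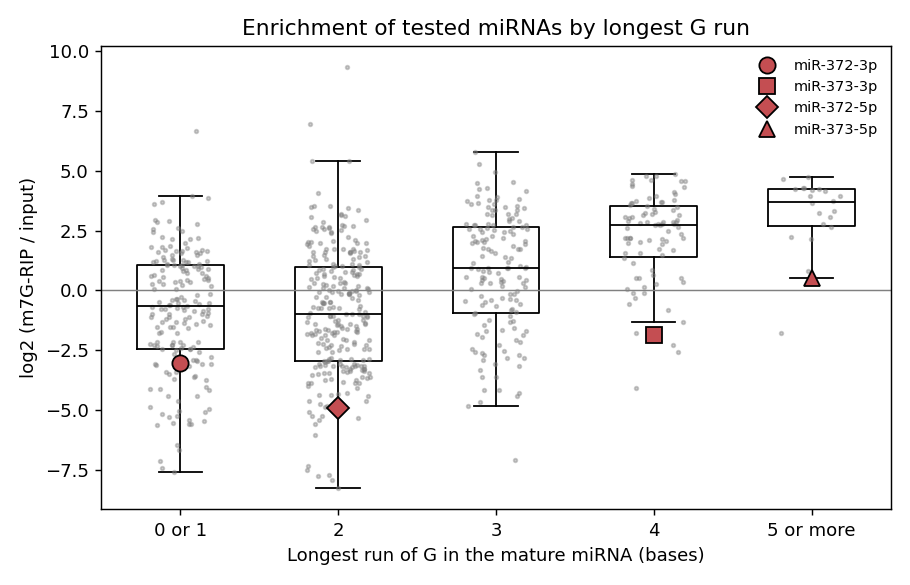
log2 ratio of m7G-RIP to input for 714 tested miRNAs (grey points), grouped by the longest run of G in the mature sequence, with boxes for the quartiles, a line for the median, whiskers to the farthest point within 1.5 times the box height, and the 4 counted members marked. Medians go from -0.65 at a run of 0 or 1 to 3.70 at 5 or more, and each member lies below the median of its group.

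Within hairpins the same letters were set against the arm ratios, for 169 hairpins with both sequences. Where the 5p arm had the longer run of G, the ratio of 3p to 5p was called lower in m7G-RIP in 55 of 89 hairpins, called higher in 8 and not called in the rest (limma, adjusted p under 0.05). The median difference was -2.20. Where the 3p arm had the longer run, 5 of 38 were called lower and 14 higher, with a median of 0.73. With equal runs 15 of 42 were called lower and 17 higher, with a median of 0.41. Of all 194 hairpins, 46.4% were called lower and 20.6% higher. miR-373, with runs of 5 and 4, was one of the 55. miR-372, with runs of 2 and 1, stood at 1.85, which is given as a description. By the share of G, the ratio was called lower in 60 of 102 hairpins and higher in 9 where the 5p arm had the larger share. The median difference there was -2.08. Where the 3p arm had the larger share of G, the ratio was called lower in 15 of 60 hairpins and higher in 27, with a median difference of 1.13. Both miR-372 and miR-373 have the larger share of G in the 3p arm, and miR-373, at -2.36, was one of these 15 of 60.

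For each member, the 3 tested miRNAs with the most similar profile were taken, by the root mean square difference of log2 CPM over the 6 libraries after centring each on its mean. For miR-372-3p these were miR-30a-5p, miR-532-5p and miR-9-5p, at 0.10 to 0.12. For miR-372-5p they were miR-106b-5p, a carrier of the AAGUGC letters, then miR-455-5p and miR-30e-5p, at 0.14 to 0.18. miR-373-3p was closest to miR-378a-3p (0.07), followed by miR-146b-3p and miR-23b-3p. miR-373-5p was closest to miR-197-3p (0.07), followed by miR-6511a-3p and miR-1343-3p. No member was among the closest of another, and no miR-302 arm was among them.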

How the data were processed

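Small RNA libraries of Caco-2 cells (3 input, 3 m7G-RIP) were prepared with the NEBNext Small RNA kit. The authors trimmed reads with Trimmomatic, aligned them to GRCh38 and counted mature miRBase miRNAs with featureCounts. The methods name STAR, and the submitters' processing notes name Bowtie2. The deposited values are raw read counts, neither normalized nor pooled.

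miRNAs kept by filterByExpr (minimum count 10, minimum total 15) were tested with edgeR 4.0.16 (TMM factors, quasi-likelihood test, Benjamini-Hochberg, adjusted p under 0.05). Arm ratios, log2 of (3p + 0.5)/(5p + 0.5), were tested with limma 3.58.1. DESeq2 1.42.0 was an alternative. Tests were checked on simulated counts in which a minority of miRNAs changed, evenly up and down. Most tested miRNAs were called in these data, so that check does not cover their scaling. The protocol keeps part of the RNA as input before immunoprecipitation. Input and m7G-RIP libraries may thus form pairs, which the labels do not name. Deviations of same-numbered libraries had correlations of -0.06, -0.05 and 0.08, which cannot show that pairs are absent. Libraries were not paired in the main fit, and a replicate block was an alternative. Limits at 3 counts cover counting error only, and reads carry no molecular identifiers.

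The members and lists were chosen with earlier results of these data known. The miRNAs named were the members, miR-371b, tested miR-302 and miR-367 arms, C19MC and AAGUGC miRNAs, markers, and the 3 nearest in profile to each member. miRNAs named for the opposite-strand overlap were chosen after their values were seen.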

Additional observations from a re-analysis of the deposited data

How the results depend on the processing

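The lower values of miR-372-3p, miR-372-5p and miR-373-3p, the arm ratios of miR-372 and miR-373, the members' share of counts, and the counts of 3 lower members, 10 lower same-seed miRNAs and 5 lower arms of the miR-302 cluster kept their direction, and the counts stayed within 1.5 times, under all alternatives run. miR-372-3p is among the 3 lower members, and every value resting on it remains a description, since its input level chose the cluster. The higher value of miR-373-5p kept its direction in 15 of 15 alternatives but its call in 7. The log2 enrichment was 0.18 with DESeq2's size factors, 0.18 with DESeq2's Wald test (adjusted p = 0.412), 0.20 with no filter, 0.39 where each library had to hold 10 counts or more and 0.52 with a threshold of 0.01, and in each of these 0 members were called higher. Leaving out 1 library gave 0.30 to 0.64, and 0 to 1 members called higher. With the replicate block it was 0.51 (adjusted p = 0.0251, edgeR), with 3 members lower and 1 higher, and the arm ratio of miR-373 differed by -2.36 (adjusted p = 0.00579, limma).

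Scaling set the level of all enrichments. The median of all tested miRNAs moved by -0.34 with DESeq2's size factors and by 1.09 with total counts, which called 24.75% of miRNAs lower and 55.25% higher, against 38.1% and 40.1%. Upper-quartile factors called 28.4% lower and 52.25% higher, and total counts without the 6 members 29.9% and 50.25%. No spike-in is named in the sources used here, so the size of an enrichment is relative to the other miRNAs.

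The m7G-RIP libraries held fewer counts than the input, with 54 to 102 counts of miR-372-5p. miRNAs without a mature sequence in the table used here have no place in the grouping by runs of G.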
